A study of Mus musculus with 119 samples.

Results

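Maf, Maff, Mafg and Mafk were followed through an RNA-seq series of mouse bone marrow-derived macrophages stimulated with LPS. These 4 of the 18098 genes in the deposited table were picked by symbol, as the large Maf factor and the 3 small Maf factors and not by a threshold on measured values. All 4 passed the filter on low values in both fits. The series asks which genes TPL-2 (the kinase encoded by Map3k8) controls in LPS-stimulated macrophages, and through which part of the pathway below it. It holds 119 libraries in 25 groups, all from C57BL/6(NIMR) mice. LPS was given at 100 ng/ml for 0.5, 1 or 2 h, or left out. WT cells had 6 libraries at 0, 0.5 and 1 h and 4 at 2 h. Map3k8[D270A] cells (D270A below) carry a TPL-2 without kinase activity and had 6 libraries at each time. Elk1-/-Elk4-/- cells (dKO below) lack a pair of ternary complex factors, which are ETS transcription factors phosphorylated by ERK1/2, and had 4 libraries at each time. Nfkb1[SS/AA] cells (SSAA below) carry a p105 whose IKK phosphorylation sites are mutated, and had 6 libraries at 0, 0.5 and 1 h. WT cells with PD0325901, an inhibitor of MKK1/2 given at 0.1 µM for 10 min before LPS, had 6 libraries at 0.5 and 1 h. Inhibitor alone for 10, 40 and 70 min and DMSO for 10 min had 3 libraries each. WT cells with the RSK inhibitor RSKi47, given at 2 µM for 10 min before LPS, had 4 libraries at 0, 1 and 2 h and 3 at 0.5 h. All cells had been grown in L-cell conditioned medium for 7 days and kept overnight in 1% FBS. Cells of the mutant genotypes came from mutant mice, so the change was present throughout their differentiation, while the inhibitors acted only from shortly before LPS.

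Maf proteins are basic leucine zipper transcription factors that bind long palindromic elements called Maf recognition elements. Large Mafs such as Maf (c-Maf) carry an activation domain, and in macrophages Maf is known for driving Il10 and for opposing self-renewal. The small Mafs Maff, Mafg and Mafk lack an activation domain. They repress as homodimers, and act with CNC and BACH partners such as Nfe2l2 (NRF2) and Bach1 at antioxidant response elements.

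The genes lie on GRCm38.p6, the RefSeq patch release of the mm10 build named in the submitters' processing notes. Maf is at chr8:115703253-115706894, Maff at chr15:79346621-79359078, Mafg at chr11:120625117-120634955 and Mafk at chr5:139791536-139802653. Mafg overlaps the annotated gene Gm17586 by 1206 bases. The values were made per gene, so they do not say which start site was used, and in a bulk library a lower level cannot be told apart from fewer expressing cells. The 250 bases before RefSeq start sites are shown for the start sites 2 and 3 of Maff, the member with the largest LPS response, and for Mafg and Mafk beside it. Capitals mark matches, on either strand, to TGACGTCA (the CRE bound by CREB and ATF factors), TGANTCA (AP-1), GCGNGGGCG (EGR), a loose NF-kappaB pattern (GGG, any 5 bases, CC) and the CArG box of SRF. Lines run 5′ to 3′ on the strand of the gene. They are read from RefSeq at chr15:79347270-79347519 (plus strand), chr15:79348152-79348401 (plus), chr11:120633548-120633797 (minus) and chr5:139791286-139791535 (plus).
Maff start 2: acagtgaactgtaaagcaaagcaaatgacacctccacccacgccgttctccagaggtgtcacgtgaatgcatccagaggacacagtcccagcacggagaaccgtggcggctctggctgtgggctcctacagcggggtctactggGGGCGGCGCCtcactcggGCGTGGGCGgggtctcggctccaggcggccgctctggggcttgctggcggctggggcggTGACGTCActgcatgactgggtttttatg
Maff start 3: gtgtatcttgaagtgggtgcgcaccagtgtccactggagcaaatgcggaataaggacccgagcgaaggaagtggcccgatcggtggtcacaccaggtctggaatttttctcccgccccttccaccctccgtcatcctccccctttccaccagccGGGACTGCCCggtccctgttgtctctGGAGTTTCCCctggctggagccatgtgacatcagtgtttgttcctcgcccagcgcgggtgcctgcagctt
Mafg: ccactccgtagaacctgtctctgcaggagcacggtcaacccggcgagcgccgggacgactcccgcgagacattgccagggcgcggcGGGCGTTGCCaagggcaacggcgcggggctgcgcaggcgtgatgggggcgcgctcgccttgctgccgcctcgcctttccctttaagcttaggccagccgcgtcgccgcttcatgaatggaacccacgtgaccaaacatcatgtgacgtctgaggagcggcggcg
Mafk: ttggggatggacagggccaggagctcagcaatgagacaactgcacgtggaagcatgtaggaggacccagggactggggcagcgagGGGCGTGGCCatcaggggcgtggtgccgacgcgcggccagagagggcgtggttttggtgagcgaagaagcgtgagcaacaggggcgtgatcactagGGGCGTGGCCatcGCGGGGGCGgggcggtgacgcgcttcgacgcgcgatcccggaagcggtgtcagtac

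Maff start 2 had a CRE 29 bases before the start and an EGR match 88 bases before it. CRE letters were found in 1.55% of the 32851 RefSeq windows of the same length and EGR letters in 4.7%. Maff start 3 had 2 NF-kappaB matches, at 96 and 70 bases before it, a pattern found in 45.8% of windows. The pattern also lay 106 bases before Maff start 2, 164 before the Mafg start, and 165 and 69 before the Mafk start. Mafk had an EGR match at 56 bases before the start. No CArG box (1.47% of windows) and no AP-1 match (6.75%) was present in these windows. Maff start 1 held only an NF-kappaB match. The Mafg window, like those of Maff starts 2 and 3, lies inside the span of its gene given above. The bases before the outer 5′ end of Mafg were not searched. These matches are descriptions of letters.

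Some facts of the whole series bear on the values. The deposited numbers are log2-scale normalized values without counts, which leaves the sequencing depth behind them unknown, and differences below are differences of these log2 values (log2 fold changes). The study's methods call the libraries biological replicates, and the labels do not say whether they came from separate mice or separate cultures, so p-values measure the spread between these libraries. The WT and D270A libraries belong to 1 labelled experiment, and the dKO, SSAA, PD0325901 and RSKi47 libraries to 4 others with no untreated WT arm. Against WT, those arms and their experiments cannot be told apart. All comparisons with WT share the WT libraries. Within the TPL experiment, libraries fell into 2 sets, WT replicates 4 to 6 with D270A replicates 1 to 3 and WT replicates 7 to 9 with D270A replicates 4 to 6. Deviations from the group means correlated with a median r of 0.23 within a set and -0.23 between sets. RSKi47 replicate 4 stood apart for 3 members, and SSAA replicate 2 at 1 h for Mafg. Results that turn on them are given with and without them. In the dKO libraries Elk1 lay between 6.17 and 6.59 and Elk4 between 5.51 and 5.88, below every other library (lowest 8.55 and 6.88). The D270A and SSAA changes leave a transcript, so the level of Map3k8 or Nfkb1 does not check those labels. The 8 macrophage markers averaged 14.3 to 14.6 across groups. Neutrophil markers (7 of 7 in the file, 4 above the filter) averaged from 2.27 in unstimulated D270A cells to 4.77 in dKO cells at 2 h. B cell markers were all below the filter. Above it were 1 of 4 T cell, 3 of 4 dendritic cell, 3 of 5 fibroblast and 2 of 5 glial markers in the file. The highest marker of each averaged 8.05 (Cd4), 3.66 (Xcr1), 3.62 (Pdgfrb) and 10.39 (Mbp).

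LPS changed all 4 genes in WT cells, each with its own time course. Maff rose within 0.5 h and peaked at 1 h, Mafg rose slightly, Mafk rose mainly at 2 h, and Maf fell. Maff was between 6.86 and 7.09 (median 7.01) in the 6 unstimulated WT libraries. It was between 8.38 and 9.67 (median 9.05) at 0.5 h, between 10.99 and 11.47 (median 11.25) at 1 h, and 9.96, 9.94, 10.12 and 10.10 at 2 h. No time overlapped with the unstimulated libraries. The log2 fold changes were 2.04 ± 0.14 (SE), 4.25 ± 0.14 and 3.03 ± 0.15 (limma, adjusted p = 2.07e-18, 1.65e-33 and 4.82e-25), or 19-fold at 1 h. At 1 h, 21 of 11884 genes tested rose by as much as Maff or more, Maff included. The 0.5 h value depended on the set of replicates. WT replicates 4, 5 and 6 stood at 8.55, 8.38 and 8.47, and replicates 7, 8 and 9 at 9.63, 9.55 and 9.67. The rise at 0.5 h was 1.39 in the first set and 2.69 in the second, while at 1 h it was 4.32 and 4.18.

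Mafk behaved differently in time. It stood between 9.50 and 9.62 without LPS, between 9.63 and 9.84 at 0.5 h, between 9.62 and 9.83 at 1 h, and at 10.86, 10.98, 10.88 and 10.66 at 2 h. The 2 h libraries did not overlap with any earlier time. Its log2 fold change was 0.19 ± 0.06 at 0.5 h (limma, adjusted p = 0.0433), 0.21 ± 0.06 at 1 h (adjusted p = 0.00486) and 1.29 ± 0.07 at 2 h (adjusted p = 7.85e-23). The 0.5 h call was lost without any single WT replicate (adjusted p 0.0559 to 0.128). With the replicate number as a block it passed (limma, adjusted p = 0.00434). From 1 to 2 h Mafk rose by a log2 fold change of 1.08 ± 0.07 (limma, adjusted p = 3.11e-19), while the change of Maff over the same hour was -1.22 ± 0.15 (adjusted p = 4.65e-10).

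Mafg rose by less than 2-fold at every time. Its 6 libraries ranged from 9.21 to 9.37 without LPS (median 9.27), from 9.51 to 9.64 at 0.5 h (median 9.56) and from 9.69 to 9.93 at 1 h (median 9.82), and stood at 9.53, 9.56, 9.50 and 9.42 at 2 h. All stimulated libraries lay above the unstimulated ones. The log2 fold changes were 0.29 ± 0.05, 0.53 ± 0.05 and 0.22 ± 0.05 at 0.5, 1 and 2 h (limma, adjusted p = 9.60e-06, 7.85e-14 and 0.000310). The 2 h value was 0.25 in the first set of replicates and 0.14 in the second, where it did not pass (adjusted p = 0.144). Maf, the large factor, ranged from 12.25 to 12.43 without LPS (median 12.30), from 12.30 to 12.41 at 0.5 h (median 12.33) and from 12.01 to 12.13 at 1 h (median 12.08), and stood at 11.82, 11.81, 11.76 and 11.94 at 2 h. The 1 and 2 h libraries were all below the unstimulated ones. The log2 fold change was 0.00 ± 0.04 at 0.5 h (adjusted p = 0.986), -0.26 ± 0.04 at 1 h and -0.50 ± 0.05 at 2 h (limma, adjusted p = 2.62e-06 and 4.72e-13).

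Of the 4 genes, 3 passed the test at 0.5 h, against 11.6% of all genes tested, and 4 at 1 h and at 2 h, against 46.8% and 71.5%. Between consecutive times, 3 passed from 0.5 to 1 h (40.3% of all genes) and 4 from 1 to 2 h (65.3%). With so many genes called at 1 and 2 h, the number of members called there does not set them apart. The sizes do differ, since a 2-fold change was reached by Maff at each time and by Mafk at 2 h, and in no case by Maf or Mafg.

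**Figure D1:**
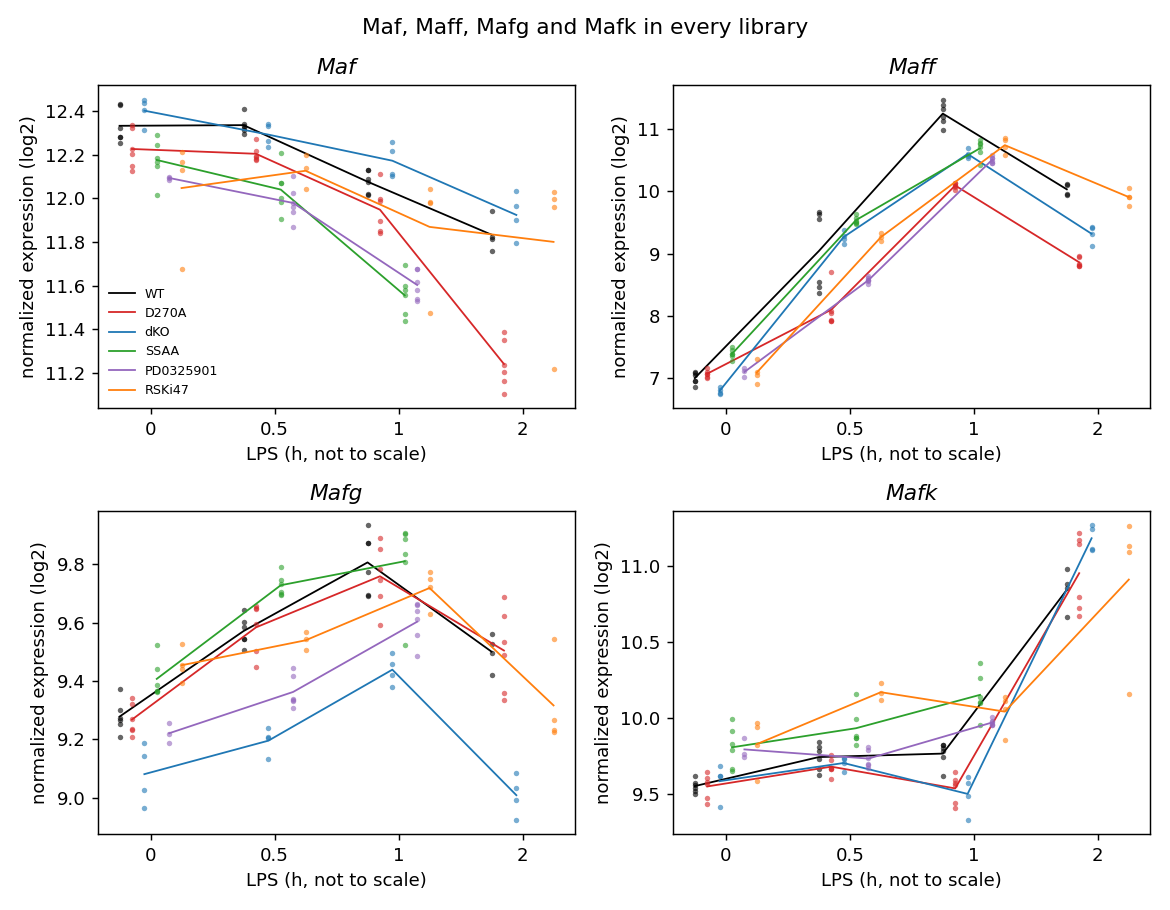
Each point is 1 library, placed by hours of LPS on the x axis (not to scale) and by log2 normalized expression on the y axis, with lines through the means of WT, D270A, dKO, SSAA, PD0325901 and RSKi47 libraries. PD0325901 alone for 10 min stands at 0 h. Maff reached its highest value at 1 h in WT libraries (10.99 to 11.47), Mafk rose mostly between 1 and 2 h, and Maf was lowest in D270A cells at 2 h (11.11 to 11.39).

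TPL-2 kinase activity was tested by comparing D270A with WT cells of the same experiment. Maff was lower in D270A cells at every LPS time and not without LPS. Maf was lower at 2 h, Mafk was slightly lower at 1 h, and Mafg did not differ at any time. Unstimulated Maff was 7.00 to 7.17 (median 7.07) in D270A cells. It reached 7.94, 7.91, 8.05, 8.71, 8.08 and 7.91 in replicates 1 to 6 at 0.5 h, 10.03 to 10.13 (median 10.10) at 1 h and 8.80 to 8.96 (median 8.83) at 2 h. All D270A libraries lay below all WT libraries at 1 and 2 h. At 0.5 h only D270A replicate 4 was not below all WT libraries. It lay above WT replicates 4 to 6, of the other set, and below WT replicates 7 to 9, of its own set. The log2 fold change from WT was 0.07 ± 0.14 at 0 h (95% interval -0.20 to 0.34; adjusted p = 0.913), -0.94 ± 0.14 at 0.5 h (limma, adjusted p = 2.06e-06), -1.15 ± 0.14 at 1 h (3.17e-09) and -1.17 ± 0.15 at 2 h (1.40e-08). Ordered by log2 fold change, Maff was the 16th, 23rd and 42nd lowest of 11884 genes at 0.5, 1 and 2 h. In the first and second sets of replicates the difference was -0.50 and -1.39 at 0.5 h, -1.27 and -1.04 at 1 h and -1.15 and -1.24 at 2 h, and each passed the test. The second set has 1 WT library at 2 h, so its 2 h tests, for every gene, assume that this library varies like the other groups.

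Maff still rose in D270A cells, by 1.03 ± 0.14, 3.02 ± 0.14 and 1.79 ± 0.14 at 0.5, 1 and 2 h (limma, adjusted p = 7.08e-08, 1.31e-26 and 1.58e-17). Its LPS response was smaller than in WT cells, with differences of -1.01 ± 0.19, -1.23 ± 0.19 and -1.24 ± 0.20 on the log2 scale (interaction test, limma, adjusted p = 0.00248, 1.22e-05 and 7.07e-06). Only 0.109%, 2.02% and 15.5% of all genes passed that interaction test at 0.5, 1 and 2 h. Maff was the only member to pass it at 0.5 and 1 h, and Maff and Maf passed it at 2 h. In the first set of replicates alone Mafk passed too, with -0.24 at 1 h and 0.25 at 2 h (limma, adjusted p = 0.00892 and 0.00119), and in the second set it did not (-0.22 and 0.10, adjusted p = 0.344 and 0.645).

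Maf fell further in D270A cells between 1 and 2 h. It ranged from 12.12 to 12.33 at 0 h (median 12.22), from 12.17 to 12.27 at 0.5 h (median 12.19), from 11.84 to 12.11 at 1 h (median 11.94) and from 11.11 to 11.39 at 2 h (median 11.22). The 2 h libraries lay below all 4 WT libraries at that time. The LPS response at 2 h was -0.98 ± 0.04 in D270A cells (limma, adjusted p = 7.72e-27), and the difference from WT cells was -0.59 ± 0.05 (adjusted p = 5.93e-14; -0.62 in the first set and -0.64 in the second, with its 1 WT library). The interaction at 2 h was -0.49 ± 0.07 (limma, adjusted p = 2.10e-07). Before 2 h the differences from WT were between -0.13 and -0.11, with adjusted p from 0.0575 to 0.288. In the first set alone the differences at 0.5 and 1 h passed the test (-0.13 and -0.17, limma, adjusted p = 0.0418 and 0.00115), as did the 1 h difference without D270A replicate 6 (-0.16, adjusted p = 0.0102).

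Mafk at 1 h was 9.41 to 9.65 (median 9.57) in D270A cells, against 9.62 to 9.83 (median 9.79) in WT cells, and the ranges overlapped slightly. The log2 fold change was -0.23 ± 0.06 (limma, adjusted p = 0.0143; 0.0506 when all libraries of the series were fitted together). At 2 h Mafk stood at 11.14, 11.22 and 11.17 in D270A replicates 1 to 3 and at 10.80, 10.67 and 10.73 in replicates 4 to 6. The difference from WT at 2 h was 0.11 ± 0.07 over all libraries (adjusted p = 0.281), 0.27 in the first set (adjusted p = 6.15e-06) and 0.07 in the second (adjusted p = 0.672). Mafg differed from WT by between -0.05 and 0.01 at the 4 times (adjusted p 0.648 to 0.970), and the 95% intervals ran from -0.15 at the lowest to 0.11 at the highest. None of the members passed the test against WT at 0 h, 1 at 0.5 h, 2 at 1 h and 2 at 2 h, against 1.44%, 1.37%, 9.79% and 27.7% of all genes. For the LPS response within D270A cells, 2, 3 and 4 members passed at 0.5, 1 and 2 h, against 5.08%, 41.9% and 69.5%.

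**Figure D2:**
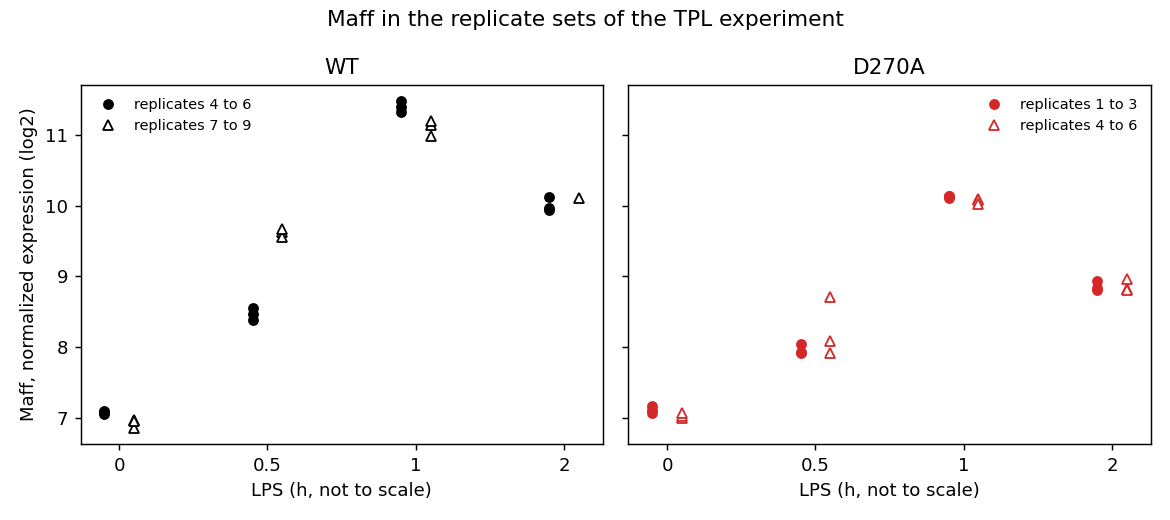
Log2 normalized expression of Maff (y axis) by hours of LPS (x axis, not to scale) in WT cells (left) and D270A cells (right), with filled circles for the first set of replicates and open triangles for the second. The sets lie apart in WT cells at 0.5 h (8.38 to 8.55 against 9.55 to 9.67) and by less at 0 h (7.06 to 7.09 against 6.86 to 6.96) and 1 h (11.32 to 11.47 against 10.99 to 11.19).

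MKK1/2, the kinases between TPL-2 and ERK1/2, were inhibited with PD0325901. Maff again rose less. Maf and Mafg were lower than in WT cells, but the interaction test did not pass for either. With inhibitor and LPS, Maff was 8.51 to 8.63 (median 8.57) at 0.5 h and 10.46 to 10.59 (median 10.51) at 1 h. The base libraries, with inhibitor alone, stood at 7.16, 7.15 and 7.06 at 40 min and at 7.23, 7.30 and 7.14 at 70 min. The LPS response was 1.45 ± 0.13 and 3.29 ± 0.13 (limma, adjusted p = 9.14e-17 and 3.34e-42). Against WT cells the difference was -0.47 ± 0.11 at 0.5 h and -0.74 ± 0.11 at 1 h (limma, adjusted p = 0.000347 and 1.64e-08). At 1 h every inhibitor library was below every WT library. At 0.5 h the inhibitor libraries overlapped with the first WT set and lay below the second, and the call was lost when only the compared groups were fitted (adjusted p = 0.145). The interaction was -0.96 ± 0.17 at 1 h (limma, adjusted p = 1.59e-05) and -0.59 ± 0.17 at 0.5 h (adjusted p = 0.0464). Leaving out any PD0325901 replicate, or WT replicate 7, 8 or 9, ended the call at 0.5 h (adjusted p 0.0550 to 0.219).

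Maf under PD0325901 and LPS was 11.87 to 12.10 (median 11.97) at 0.5 h and 11.53 to 11.68 (median 11.60) at 1 h, below all WT libraries at both times. The differences from WT cells were -0.36 ± 0.07 and -0.47 ± 0.07 (limma, adjusted p = 3.00e-05 and 2.72e-08). The DMSO libraries, without inhibitor or LPS, also lay below all unstimulated WT libraries (12.16 to 12.18 against 12.25 to 12.43). That difference did not pass the test. The inhibitor alone went the same way in value. Maf was 12.16, 12.16 and 12.18 with DMSO, 12.09, 12.09 and 12.10 with PD0325901 for 10 min, 11.84, 11.90 and 11.99 at 40 min and 11.80, 11.91 and 11.95 at 70 min. These groups did not overlap with DMSO, but the differences from 10 min of inhibitor (-0.18 ± 0.10 and -0.21 ± 0.10) did not pass the test (limma, adjusted p = 0.385 and 0.252). Against its matched inhibitor base, the LPS response of Maf at 1 h was -0.28 ± 0.08 (adjusted p = 0.00365; 0.0538 without PD0325901 replicate 3), close in value to WT (interaction -0.03 ± 0.11, adjusted p = 0.965, 95% interval -0.25 to 0.19).

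Mafg with PD0325901 and LPS was 9.31 to 9.45 (median 9.34) at 0.5 h and 9.49 to 9.66 (median 9.63) at 1 h, below all WT libraries of the same time. The differences were -0.21 ± 0.05 and -0.20 ± 0.05 (limma, adjusted p = 0.000600 and 0.000641). The DMSO libraries, without inhibitor or LPS, stood at 9.12 to 9.23, against 9.21 to 9.37 in unstimulated WT libraries. The LPS response of Mafg differed from that of WT cells by -0.03 and -0.12 (interaction test, limma, adjusted p = 0.967 and 0.569). Mafk was 9.68 to 9.81 at 0.5 h and 9.95 to 10.01 at 1 h, and at 1 h above all WT libraries by 0.21 ± 0.08 (adjusted p = 0.0376; over 0.05 in 9 of the 12 fits with 1 replicate left out). Without LPS or inhibitor, the DMSO libraries (9.70 to 9.77) also lay above all WT libraries (9.50 to 9.62). The LPS response of Mafk under PD0325901 was 0.00 ± 0.10 and 0.05 ± 0.10 (adjusted p = 0.994 and 0.710). In all, 3 members passed against WT at 0.5 h and 4 at 1 h, with 29.4% and 35.7% of all genes. For the interaction it was 1 at each time, Maff, with 1.49% and 3.58% of genes. For the LPS response 2 members passed at 0.5 h (14.9% of genes) and 3 at 1 h (43.6%). One at 0.5 h was Mafg, whose response was 0.26 against 40 min of inhibitor and 0.14 against 10 min (limma, adjusted p = 0.000648 and 0.147). Unstimulated, none passed for DMSO against WT (23.6% of genes passed), for PD0325901 against DMSO at 10 min (0% passed, with 245 of 11971 genes at an unadjusted p below 0.05), or for 40 and 70 min against 10 min of inhibitor (3.58% and 6.09%).

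**Figure D3:**
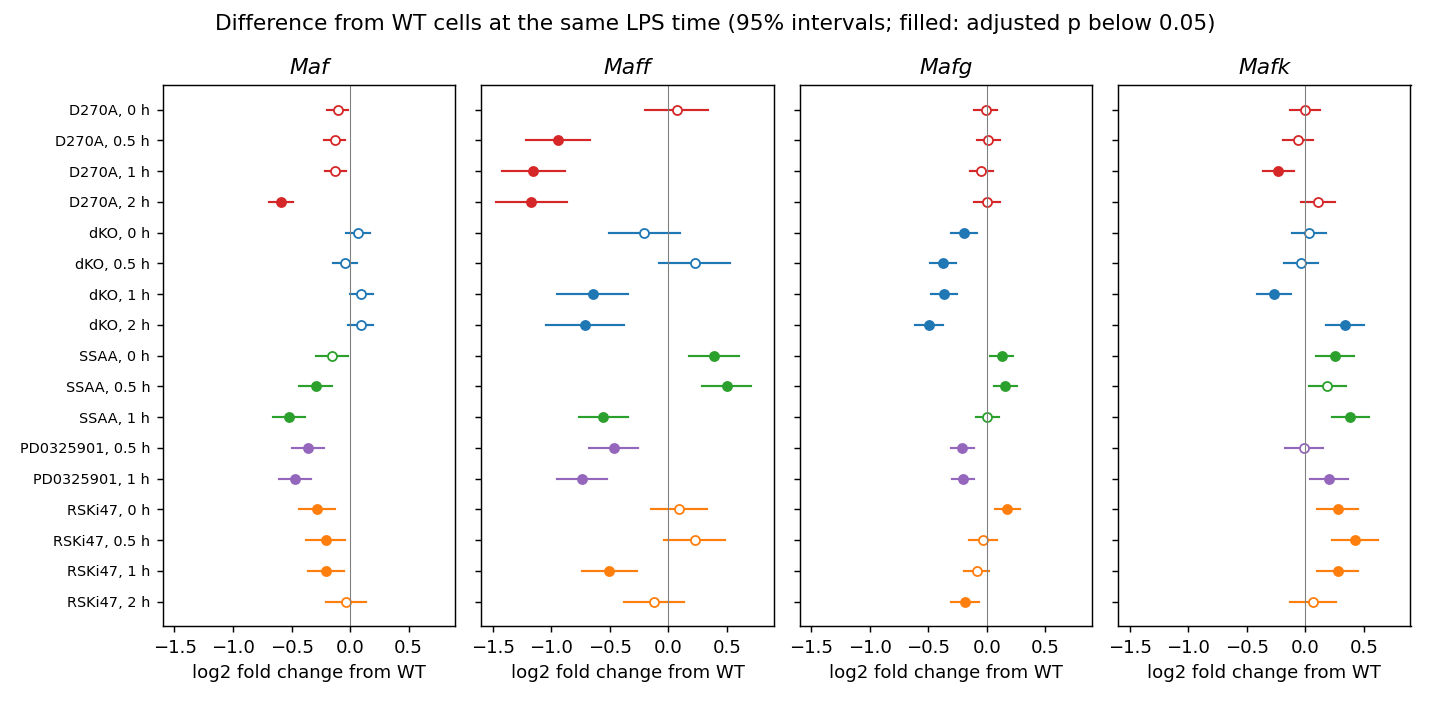
Log2 fold change from WT cells at the same LPS time (x axis) for each arm and time (y axis), 1 panel a gene, with 95% intervals from limma and filled points for adjusted p below 0.05. Maff lies to the left in D270A cells from 0.5 h on (-0.94 to -1.17) and in every other arm at 1 h, Mafg lies to the left in dKO cells at all 4 times, and Maf lies farthest left in D270A cells at 2 h (-0.59).

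The ternary complex factors ELK1 and SAP-1 (encoded by Elk4) are targets of ERK1/2, and dKO cells lack both. In these cells Maff was lower than in WT at 1 and 2 h but not at 0.5 h, and Mafg was lower at every time, LPS or not. Maff stood at 6.77, 6.85, 6.81 and 6.75 without LPS, 9.39, 9.23, 9.16 and 9.29 at 0.5 h, 10.57, 10.69, 10.61 and 10.53 at 1 h, and 9.42, 9.41, 9.32 and 9.12 at 2 h. It lay below all WT libraries at 0, 1 and 2 h and between the WT sets at 0.5 h. The log2 fold changes from WT were -0.21 ± 0.15 at 0 h (limma, adjusted p = 0.257), 0.23 ± 0.15 at 0.5 h (0.224; 0.0488 without WT replicate 9), -0.65 ± 0.15 at 1 h (0.000304) and -0.71 ± 0.17 at 2 h (0.000296). The difference in LPS response was 0.43 ± 0.21 at 0.5 h, -0.44 ± 0.21 at 1 h and -0.51 ± 0.22 at 2 h. None of these passed the test (adjusted p 0.113 to 1.00; 0.0319 at 2 h when all libraries of the series were fitted together).

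Mafg in dKO cells was 9.19, 8.96, 9.03 and 9.14 without LPS, 9.21, 9.13, 9.24 and 9.20 at 0.5 h, 9.46, 9.50, 9.42 and 9.38 at 1 h, and 9.03, 9.08, 8.93 and 8.99 at 2 h. At each time all 4 libraries were below all WT libraries. The differences from WT were -0.20 ± 0.05, -0.38 ± 0.05, -0.37 ± 0.05 and -0.49 ± 0.06 at 0, 0.5, 1 and 2 h (limma, adjusted p = 0.00221, 2.06e-07, 1.74e-07 and 1.61e-09). The difference in the 2 h LPS response was -0.29 ± 0.08 (limma, adjusted p = 0.00739). At 2 h Mafg in dKO cells was back at its unstimulated level in value (-0.07 ± 0.06, adjusted p = 0.293, 95% interval -0.19 to 0.05).

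Mafk in dKO cells was 9.62, 9.57, 9.49 and 9.33 at 1 h, narrowly below all WT libraries, and 11.27, 11.11, 11.11 and 11.25 at 2 h, above all WT libraries. The differences from WT were -0.27 ± 0.07 at 1 h and 0.34 ± 0.08 at 2 h (limma, adjusted p = 0.00180 and 0.000329). The difference in the 2 h LPS response, 0.31 ± 0.11, had an adjusted p of 0.0393 and lost the call without WT replicate 4, 6 or 7 or dKO replicate 1 or 4 (adjusted p 0.0649 to 0.195). Maf differed from WT by between -0.04 and 0.10 in dKO cells and passed at no time (adjusted p 0.101 to 0.499), except for 0.13 at 2 h without dKO replicate 4 (limma, adjusted p = 0.0492). Against WT, 1, 1, 3 and 3 members passed at 0, 0.5, 1 and 2 h, against 51.8%, 44.4%, 53.4% and 50.8% of all genes. These shares are as high without LPS as with it, so a count of members from this arm carries little. The interaction passed in 0.0589%, 1.35% and 16.9% of genes at 0.5, 1 and 2 h, with 0, 0 and 2 members. The LPS response in dKO cells passed in 1, 3 and 3 members at 0.5, 1 and 2 h, against 4.96%, 33.3% and 67.2% of genes. Neutrophil markers were highest in dKO cells at 2 h, and their part in these values was not tested.

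RSK kinases are activated by ERK1/2 and were inhibited with RSKi47. Maff was lower than in WT cells at 1 h and not at 0.5 or 2 h. It stood at 7.05, 6.91, 7.10 and 7.31 without LPS, 9.26, 9.20 and 9.33 at 0.5 h, 10.85, 10.71, 10.83 and 10.58 at 1 h, and 9.91, 9.91, 10.05 and 9.76 at 2 h. Only the 1 h libraries were all below WT. The differences were 0.22 ± 0.13 at 0.5 h (limma, adjusted p = 0.149), -0.51 ± 0.12 at 1 h (0.000190; -0.45 without replicate 4) and -0.12 ± 0.13 at 2 h (0.437). The 0.5 h difference passed without WT replicate 7, 8 or 9 (0.33 to 0.35, adjusted p 0.0174 to 0.0286). The interaction at 1 h was -0.60 ± 0.17 (limma, adjusted p = 0.0159) and -0.47 without RSKi47 replicate 4 (adjusted p = 0.161).

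RSKi47 replicate 4 carried much of the Maf and Mafk values in this arm. Maf was 12.17, 12.21, 12.13 and 11.68 in replicates 1 to 4 without LPS, 12.20, 12.14 and 12.04 in replicates 1 to 3 at 0.5 h, 12.04, 11.98, 11.98 and 11.47 at 1 h, and 11.96, 12.03, 12.00 and 11.22 at 2 h. Replicate 4 was the lowest at each time it was measured, and apart from the others. With it, the differences from WT were -0.28 ± 0.08 at 0 h, -0.21 ± 0.08 at 1 h and -0.03 ± 0.08 at 2 h (limma, adjusted p = 0.00122, 0.0196 and 0.768). Without it the differences were -0.16 (adjusted p = 0.00950), -0.08 (0.248) and 0.16 (0.0161), the last in the other direction. At 0.5 h, where replicate 4 has no library, the difference was -0.21 (limma, adjusted p = 0.0345). That call was lost without WT replicate 7 or RSKi47 replicate 2 or 3 (adjusted p 0.0625 to 0.160). At 1 h the LPS response of Maf was -0.18 with replicate 4 and -0.17 without it (limma, adjusted p = 0.112 and 0.0344). The 2 h LPS response of Maf was -0.25 ± 0.08 with it and -0.17 without it (limma, adjusted p = 0.00867 and 0.0124; 0.318 with it when only the compared groups were fitted). Its difference from the WT response was 0.25 ± 0.11 with replicate 4 (adjusted p = 0.111) and 0.32 without it (adjusted p = 0.00160).

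Mafk under RSKi47 was 9.97, 9.83, 9.94 and 9.59 without LPS, 10.16, 10.12 and 10.23 at 0.5 h, 10.11, 10.06, 10.14 and 9.86 at 1 h, and 11.13, 11.10, 11.26 and 10.16 at 2 h. It was higher than in WT cells already without LPS, by 0.28 ± 0.09 (limma, adjusted p = 0.00701; 0.36 without replicate 4). It lay above all WT libraries at 0.5 and 1 h, by 0.43 ± 0.10 and 0.28 ± 0.09 (limma, adjusted p = 0.000188 and 0.00716; 0.34 at 1 h without replicate 4). Its LPS response at 1 h differed from that of WT cells by 0.00 ± 0.13 (adjusted p = 1.00, 95% interval -0.25 to 0.25). At 2 h the difference was 0.07 ± 0.10 with replicate 4 (adjusted p = 0.588) and 0.32 without it (adjusted p = 0.000396). At 0.5 h the LPS response of Mafk was 0.34 (limma, adjusted p = 0.0393) and 0.26 without replicate 4 (0.0603). Leaving out any 1 of the RSKi47 replicates ended that call (adjusted p 0.0603 to 0.114). So did using no filter (0.0548) or fitting only the compared groups (0.0952). The 2 h LPS response of Mafk was 1.08 ± 0.10 and 1.25 without replicate 4, and it passed either way. Mafg under RSKi47 was 9.45, 9.39, 9.44 and 9.53 without LPS and 9.26, 9.23, 9.23 and 9.54 at 2 h. Without LPS it was higher than in WT cells by 0.18 ± 0.06 (limma, adjusted p = 0.00507; 0.15 without replicate 4). At 2 h the difference was -0.18 ± 0.06 (limma, adjusted p = 0.00751, but 0.0883 when only the compared groups were fitted), and -0.26 without replicate 4. Its LPS response at 2 h was -0.14 ± 0.06 (limma, adjusted p = 0.0412) and -0.19 without replicate 4 (0.0114), where WT cells had a rise. The call was lost without RSKi47 replicate 1, 2 or 3 (adjusted p 0.110 to 0.174). The difference from the WT response at 2 h was -0.36 ± 0.08 (limma, adjusted p = 0.000447), and -0.41 without replicate 4. At 1 h it was -0.26 ± 0.08 (adjusted p = 0.0249; 0.0624 without replicate 4, and over 0.05 in 6 of 10 fits with 1 replicate left out, with WT replicates 4, 5 and 6 and RSKi47 replicates 1 and 3 as the others). Against WT, 3, 2, 3 and 1 members passed at 0, 0.5, 1 and 2 h, with 53%, 48.2%, 52.8% and 52.1% of all genes. The interaction passed in 0, 2 and 1 members at 0.5, 1 and 2 h, with 0.0251%, 5.54% and 21% of genes. The LPS response passed in 2, 2 and 4 members, with 5.1%, 29% and 62.2% of genes.

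**Figure D4:**
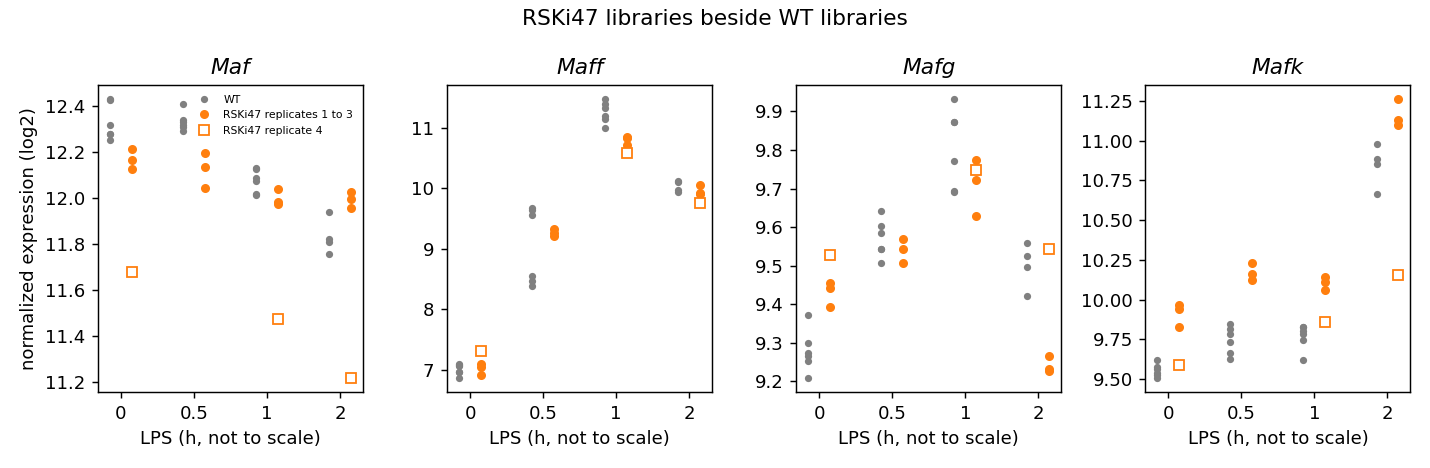
Log2 normalized expression (y axis) of the 4 genes by hours of LPS (x axis, not to scale) in WT libraries (grey), RSKi47 replicates 1 to 3 (filled orange) and RSKi47 replicate 4 (open square). Replicate 4 lies apart for Maf at 0, 1 and 2 h (11.68, 11.47 and 11.22) and for Mafk at 2 h (10.16), and it has no library at 0.5 h.

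In SSAA cells, where IKK cannot phosphorylate p105 and TPL-2 is not released from it, Maff was higher than in WT without LPS and at 0.5 h and lower at 1 h. Its libraries ranged from 7.27 to 7.50 (median 7.39) without LPS, from 9.48 to 9.64 (median 9.52) at 0.5 h and from 10.43 to 10.83 (median 10.74) at 1 h. They lay above all WT libraries at 0 h and below all at 1 h, and at 0.5 h they overlapped with WT replicates 7 to 9. The differences from WT were 0.39 ± 0.11, 0.50 ± 0.11 and -0.56 ± 0.11 (limma, adjusted p = 0.00259, 0.000107 and 8.64e-06), the 0.5 h call being lost when only the compared groups were fitted (adjusted p = 0.135). The LPS response of Maff was 2.15 ± 0.11 and 3.30 ± 0.11 at 0.5 and 1 h. It was smaller than in WT at 1 h (difference -0.95 ± 0.15, limma, adjusted p = 9.89e-07), and at 0.5 h the difference did not pass (0.11 ± 0.15, adjusted p = 1.00, 95% interval -0.19 to 0.41).

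Maf fell further in SSAA cells. It ranged from 12.02 to 12.29 (median 12.18) without LPS, from 11.91 to 12.21 (median 12.03) at 0.5 h and from 11.44 to 11.69 (median 11.57) at 1 h, and the 0.5 and 1 h libraries lay below all WT libraries. The LPS response at 1 h was -0.62 ± 0.07 (limma, adjusted p = 2.72e-13), a larger fall than in WT (interaction -0.36 ± 0.10, adjusted p = 0.00942). At 0.5 h it was -0.14 ± 0.07 (adjusted p = 0.197; 0.000421 with the replicate number as a block). Mafk was higher than in WT by 0.26 ± 0.08 at 0 h and 0.39 ± 0.08 at 1 h (limma, adjusted p = 0.00975 and 4.33e-05). Mafg was higher than in WT by 0.13 ± 0.05 at 0 h and 0.16 ± 0.05 at 0.5 h (limma, adjusted p = 0.0354 and 0.00933), the 0 h call being lost without WT replicate 4, 5, 7 or 8 or SSAA replicate 4 or 6 (adjusted p 0.0502 to 0.113). At 1 h it stood at 9.81, 9.52, 9.84, 9.90, 9.89 and 9.91 in replicates 1 to 6, with replicate 2 apart. Its difference from WT was 0.00 ± 0.05 (adjusted p = 0.955) and 0.06 without SSAA replicate 2, and its LPS response at 1 h was 0.40 ± 0.05 (limma, adjusted p = 1.10e-11) and 0.45 without it. In SSAA cells 3 members passed against WT at each time, with 32%, 32.3% and 42.5% of all genes at 0, 0.5 and 1 h. The interaction passed in 0 and 2 members, with 0.309% and 6.07% of genes, and the LPS response in 2 and 4, with 14.6% and 44.4%.

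Maff at 1 h was also compared between the perturbed arms. It was lowest in D270A cells. Compared with them it was higher by 0.51 ± 0.15 in dKO cells (limma, adjusted p = 0.00425), 0.42 ± 0.11 with PD0325901 (0.000977) and 0.65 ± 0.12 with RSKi47 (2.85e-06), with no overlap between libraries in any of these. These comparisons cross experiments, and 51.6%, 40.7% and 49.8% of all genes passed in them, with 3, 4 and 2 members. At 2 h Maf was higher in dKO than in D270A cells by 0.68 ± 0.05 (limma, adjusted p = 1.82e-16), with all 4 members and 49.6% of all genes passing. The inhibitors RSKi47 and PD0325901, both given to WT cells, were compared with each other. At 0.5 h Maff was higher with RSKi47 than with PD0325901 by 0.69 ± 0.13 (limma, adjusted p = 5.28e-06) and Mafk by 0.44 ± 0.10 (0.000125). At 1 h the Maff difference was 0.23 ± 0.12 (adjusted p = 0.0922, 95% interval -0.0045 to 0.47). Members passing numbered 3 and 1, with 49.5% and 53.9% of all genes.

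Ordered over all 25 groups, the mean of Maff ran from 6.80 (unstimulated dKO) to 11.25 (WT at 1 h), a span of 4.45 with a median SD within groups of 0.08. Of the 24 pairs of neighbours in that order, 7 had library ranges that did not overlap. WT at 1 h stood apart at the top, RSKi47, SSAA, dKO and PD0325901 at 1 h followed with ranges that overlapped from each to the next, and D270A at 1 h came below them, apart from PD0325901. Mafk ran from 9.50 (dKO, 1 h) to 11.18 (dKO, 2 h), and the 1 pair of neighbours that did not overlap was WT at 2 h and RSKi47 at 0.5 h. The 4 groups at 2 h had the highest means, but RSKi47 replicate 4 at 2 h (10.16) lay within the range of the 0.5 h RSKi47 libraries. Maf ran from 11.24 (D270A, 2 h) to 12.40 (unstimulated dKO), and only the lowest group stood apart from its neighbour. Mafg ran from 9.01 (dKO, 2 h) to 9.81 (SSAA, 1 h), and only unstimulated DMSO and 40 min of PD0325901 did not overlap as neighbours.

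The group means, which share libraries and arms, were used to find the genes most like each member (Pearson r over 25 groups). For Maff they were Pde4b (a cAMP phosphodiesterase, r = 0.978), Pim1 (a serine/threonine kinase, 0.971) and Gem (a small GTPase, 0.967). For Mafk they were Il15ra (0.964), Tap2 (a peptide transporter of antigen presentation, 0.961) and Ccdc86 (0.960). For Mafg they were Map4k5 (0.913), 1110051M20Rik (0.888) and Irs2 (0.864). For Maf they were Tlr4, the LPS receptor (0.858), Dusp6, an ERK phosphatase (0.853), and Gtpbp8 (0.847). These names depend on the groups used. Over the 12 WT, D270A and dKO groups alone, none of the 3 was kept for Maf or Maff, Map4k5 was kept for Mafg, and Tap2 and Il15ra for Mafk. Between the members over all 25 groups, r was 0.69 for Maff with Mafg, 0.32 for Maff with Mafk, -0.05 for Mafg with Mafk and -0.64 for Maf with Mafk.

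Other genes of the Maf network were read from lists. Of 6 CNC and BACH partners, 5 passed the filter, and none of them met the size rule for naming, so those named here were chosen after their values were seen. At 1 h of LPS in WT cells 2 rose (46.8% of all genes passed), Nfe2l2 by 0.70 ± 0.06 (limma, adjusted p = 1.20e-14) and Nfe2l1 by 0.16 ± 0.04 (0.000202). At 2 h 3 rose and none fell (71.5% of all genes passed), with a list median of 0.39 against -0.02 over all genes. Bach1, the heme-sensing repressor that pairs with small Mafs, rose by 0.65 ± 0.10 at 2 h (limma, adjusted p = 4.33e-08), and its D270A difference from WT at that time was -0.42 ± 0.10 (adjusted p = 0.000622). For Nfe2l2 that difference was -0.26 ± 0.07 (limma, adjusted p = 0.00293), while Nfe2l1 and Bach2 were higher, each by 0.19 (0.000235 and 0.0333). In dKO cells 4, 3, 5 and 5 were higher than in WT at 0, 0.5, 1 and 2 h, against 51.8%, 44.4%, 53.4% and 50.8% of all genes passing in either direction.

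Of 15 genes known for antioxidant or Maf recognition elements, 3 rose and 1 fell in WT cells at 1 h of LPS (46.8% of all genes passed), and 5 rose and 4 fell at 2 h (71.5% passed). Slc7a11, the cystine transporter subunit, rose by 3.07 ± 0.20 at 2 h and Txnrd1, thioredoxin reductase, by 1.75 ± 0.07 (limma, adjusted p = 1.64e-20 and 3.98e-28). The list median at 2 h was 0.02, against -0.02 over all genes. In D270A cells 0, 0, 3 and 4 of the 15 were lower than WT at 0, 0.5, 1 and 2 h, and 1 was higher, at 2 h, against 1.44%, 1.37%, 9.79% and 27.7% of all genes passing in either direction. In dKO cells 11, 11, 12 and 10 were lower and 1, 1, 1 and 0 higher at 0, 0.5, 1 and 2 h, where 51.8%, 44.4%, 53.4% and 50.8% of all genes passed in either direction, with list medians from -0.45 to -0.36. Of 8 genes known to be regulated by large Mafs in myeloid cells, 7 passed the filter, and 2 rose at 1 h (46.8% of all genes passed), Il10 by 3.43 ± 0.12 and Il12b, a subunit of IL-12 and IL-23. At 2 h 5 rose and 1 fell (71.5% passed). Il12b rose by 7.88 ± 0.28 at 2 h (limma, adjusted p = 2.10e-31). Il10, an anti-inflammatory cytokine gene and a known Maf target, differed between D270A and WT cells by -0.53 ± 0.12 at 1 h and -2.57 ± 0.14 at 2 h (limma, adjusted p = 0.00229 and 9.34e-21). In dKO cells Apoe, an apolipoprotein of macrophages, differed from WT by -1.70 ± 0.14 without LPS (limma, adjusted p = 4.60e-14), and 5, 5, 5 and 6 of the 7 genes were lower at 0, 0.5, 1 and 2 h (51.8%, 44.4%, 53.4% and 50.8% of all genes passed in either direction). The 1 gene that was higher, at 0 and 0.5 h, was Il10, by 0.78 ± 0.14 and 0.91 ± 0.14 (limma, adjusted p = 5.88e-06 and 6.26e-07), and at 2 h its difference was -0.45 ± 0.15 (0.0117).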

How the data were processed

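RNA from 119 libraries had been sequenced as strand-specific single-end reads. The submitters' processing notes name STAR 2.5.1b, RSEM 1.2.29, DESeq2 1.10.1 and the mm10 build. The authors deposited 1 table of normalized expression on a log2 scale, while the transformation and the counting strand were not given in the sources used here. No counts were used, so the depth per library is unknown and no count test or counting interval was possible. Of all values, 1 lay above 25, belonged to none of the 4 genes and was treated as missing. No library equalled another (0 of 119).

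Groups came from the sample labels. Tests covered genes that reached 10 on the linear scale in 4 or more libraries (WT, D270A and dKO fit, 62 libraries, 11884 genes) or in 3 or more (fit of all 119 libraries, 11971 genes). They were run on the deposited log2 values with limma 3.58.1 in R 4.3.3, with 1 mean per group. The first fit gave the WT, D270A and dKO results and the second the others. P-values were adjusted by Benjamini-Hochberg over all genes tested, with a threshold of 0.05. The test was tried on simulated data. Under PD0325901 the LPS response at 0.5 and 1 h was taken against 40 and 70 min of inhibitor alone. Intervals are at 95%.

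The 4 genes and the gene lists were chosen with earlier results of these data known. Besides the members, genes of the lists were named where they passed the test with a 2-fold change in WT cells at 1 or 2 h, or in D270A or dKO cells against WT, at most 3 a list, and the 3 genes most correlated with each member were named. Replicate numbers paired libraries across times within WT (30 of 30 same-numbered pairs with a correlation of deviations over 0.1) and SSAA (18 of 18), and a fit with the replicate number as a block was an alternative. Pairs over 0.1 were 34 of 36 in D270A, 20 of 21 with RSKi47, 20 of 24 in dKO and 14 of 33 with PD0325901. Other alternatives were no filter, quantile normalization, median centring, trend with robust estimation, other libraries in the fit, leaving out each replicate, each replicate set alone and, for PD0325901, 10 min of inhibitor as the base. One result of the gene lists is not reported here.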

Additional observations from a re-analysis of the deposited data

Results flagged for a closer look

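A sample far from the others of its group was found in 7 of 80 groups of values, where chance gives about 1 in 20. For Maf, RSKi47 replicate 4 stood at 11.678 at 0 h (others 12.1 to 12.2), 11.4741 at 1 h (others 12.0) and 11.2172 at 2 h (others 12.0). At 2 h the same library stood at 9.54 for Mafg (others 9.23 to 9.26) and at 10.1575 for Mafk (others 11.1 to 11.3). Maff in D270A replicate 4 at 0.5 h was 8.71 (others 7.91 to 8.08), and Mafg in SSAA replicate 2 at 1 h was 9.52 (others 9.81 to 9.91).

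The LPS response differed from that of WT cells, by the interaction test in limma, in 13 of 52 tests over the 4 genes. Of all genes, between 0.0251% (RSKi47 at 0.5 h) and 21% (RSKi47 at 2 h) passed that test, so the pooled count has no single background share. For Maff the difference was -1.01, -1.23 and -1.24 in D270A cells at 0.5, 1 and 2 h. It was -0.95 in SSAA cells at 1 h, -0.59 and -0.96 with PD0325901 at 0.5 and 1 h, and -0.60 with RSKi47 at 1 h. For Maf it was -0.49 in D270A cells at 2 h and -0.36 in SSAA cells at 1 h. For Mafg it was -0.29 in dKO cells at 2 h and -0.26 and -0.36 with RSKi47 at 1 and 2 h. For Mafk it was 0.31 in dKO cells at 2 h. The calls for Maff with PD0325901 at 0.5 h and RSKi47 at 1 h, Mafg with RSKi47 at 1 h and Mafk in dKO cells at 2 h were lost when 1 of certain replicates was left out. All but the D270A differences compare cells of separate experiments.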

How the results depend on the processing

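Counts of tests past the threshold over the 4 genes fell when a 2-fold change was also asked for. With a 2-fold change, and with a change of the natural logarithm of 2 in brackets, the LPS response passed in 4 (4) in place of 11 tests in WT, 4 (5) in place of 9 in D270A, 4 (4) in place of 7 in dKO, 2 (2) in place of 6 in SSAA, 2 (2) in place of 5 with PD0325901 and 4 (4) in place of 8 with RSKi47. Against WT it was 2 (3) in place of 5 in D270A, 0 (1) in place of 8 in dKO, 0 (0) in place of 9 in SSAA, 0 (1) in place of 7 with PD0325901 and 0 (0) in place of 9 with RSKi47. With other libraries in the fit the RSKi47 response passed in 5 tests. In the first set of replicates alone, 8 D270A tests against WT passed. With the replicate number as a block, tests against WT numbered 8 in D270A, 13 in dKO and 5 with RSKi47; the numbers do not pair WT with these arms (0 of 12 pairs over 0.1 for D270A), and the block gave Mafk in unstimulated dKO cells a difference of -0.14 in place of 0.03. With 1 replicate left out, the Maf difference between RSKi47 and WT at 2 h ranged from -0.11 (without RSKi47 replicate 2) to 0.16 (without RSKi47 replicate 4), in place of -0.03. The block also gave the difference in the 2 h Maf response between RSKi47 and WT as 0.24 (adjusted p = 0.000136) in place of 0.25 (0.111), with 20 of 21 same-numbered RSKi47 pairs over 0.1. For the LPS response under RSKi47, the block ended the Mafk call at 0.5 h (limma, adjusted p = 0.0672). It added calls for Maf and Mafk at 1 h (5.77e-05 and 0.00657). The block also added the dKO difference in the 1 h Mafk response (0.0235). Of 184 single results, trend with robust estimation changed 0 calls, no filter 5, median centring 3, quantile normalization 7, other libraries 14 and the block 23. The causes of these changes were not tested. Without counts, the part of depth could not be examined.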
